A study of Homo sapiens with 4 samples.

Results

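The aryl hydrocarbon receptor (AHR) pathway was followed through 7 genes in SCC13 cells with and without an shRNA against the RNA-binding protein CELF2. The genes were CYP1B1, CYP1A1, AHR, AHRR, ARNT, TIPARP and ALDH3A1. They were found by symbol in a table of read counts and filled 8 of its 60617 rows, because AHRR is listed under 2 gene identifiers. The genes were chosen with the knockdown and control values already known, CYP1B1 among them for its higher counts in the knockdown. Their values are therefore given as a description, with no test.

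SCC13 is a human line from a squamous cell carcinoma of the skin, labelled wild type and grown in CnT-07 medium. All 4 libraries came from cells infected with lentivirus: 2 libraries carried a scrambled control shRNA and 2 carried an shRNA directed at CELF2. PolyA RNA was sequenced from TruSeq libraries. The labels do not say whether the replicates were separate cultures, so a p-value here speaks only to how far these libraries scatter, a scatter that may be technical. The sources used here do not give the shRNA sequences or say whether both knockdown libraries carried the same one.

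AHR is a ligand-activated transcription factor that waits in the cytosol with HSP90 and the cochaperone p23 (PTGES3). After binding a ligand such as a dioxin, a polycyclic hydrocarbon or a tryptophan derivative, it moves to the nucleus, pairs with ARNT and binds DNA at a core motif. Its targets include the cytochrome P450 enzymes CYP1A1 and CYP1B1, which oxidize foreign compounds, estrogens and retinoids, and the aldehyde dehydrogenase ALDH3A1. It also induces its own brakes: AHRR, a repressor that competes with AHR for ARNT, and TIPARP, an enzyme that ADP-ribosylates AHR. In keratinocytes the pathway answers to ultraviolet photoproducts, pollutants and microbial ligands.

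The core motif read by AHR and ARNT is GCGTG, and the RefSeq table of gene starts (GRCh38.p14) held 5 of the 7 genes: CYP1A1, AHR, AHRR, ARNT and TIPARP. The 250 bases before each start were searched on both strands for GCGTG and for the longer TNGCGTG, which contains it. The stretches below are shown because they hold the matches of 3 known AHR targets. They read 5′ to 3′ on the strand of the gene, and capitals mark GCGTG or its complement CACGC.
AHRR, chr5:321464-321713, plus strand: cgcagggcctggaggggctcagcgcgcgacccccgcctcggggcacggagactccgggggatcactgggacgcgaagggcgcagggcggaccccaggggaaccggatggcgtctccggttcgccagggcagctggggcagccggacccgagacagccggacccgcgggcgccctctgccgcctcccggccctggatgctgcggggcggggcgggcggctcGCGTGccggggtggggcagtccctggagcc
CYP1A1, chr15:74725569-74725597, minus strand: ccagggaaggagGCGTGgccacacgtaca
TIPARP, first match, chr3:156674370-156674398, plus strand: cgcgagaaaggaCACGCcccctcgcggga
TIPARP, second match, chr3:156674436-156674464, plus strand: cgaacgaacgcgCACGCgcgcgcaggggg

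In CYP1A1 the match lay 57 to 53 bases before the start, and it was the only one in that window. The first of 3 listed TIPARP starts had matches 208 to 204 and 142 to 138 bases before it, both on the opposite strand, and the other TIPARP starts had 0. The first of 2 listed AHRR starts had 1 match, 30 to 26 bases before it, which was also the only TNGCGTG among these genes (matched letters TCGCGTG). The second AHRR start had 2 matches of GCGTG. The windows of AHR and ARNT had 0 matches. Among 35116 RefSeq windows of the same length, 32.2% held GCGTG and 4.52% held TNGCGTG. A match is a description of the letters and does not show binding.

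Across the series the libraries held 17649090 to 27898889 counts, and a floor of 3 counts corresponded to 0.107 to 0.178 CPM (counts scaled to library size with TMM factors). CELF2 itself had 1 count in control replicate 1 and 0 in each of the other libraries, so its counts do not check the labels. The keratinocyte markers were present, with a summed level of 15019 and 22372 CPM in the controls and 29988 and 21328 CPM in the knockdown. Control and knockdown libraries lay on opposite sides of the first principal component (60.6% of the variance). At a Benjamini-Hochberg adjusted p under 0.05, edgeR's quasi-likelihood test called 92 genes higher and 41 lower among 15170 tested. Without adjustment, 3350 of the 15170 had a p under 0.05 in that test. DESeq2 called 1341 of 14240 tested genes (9.42%). The counts per list below are to be read beside these.

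CYP1B1 was far more abundant in the knockdown than in the controls, the targets CYP1A1 and AHRR were scarce in every library, and the receptor and its partner were level. CYP1B1 (ENSG00000138061, GRCh38 chromosome 2, 38066973 to 38109902, minus strand) encodes the P450 enzyme that hydroxylates estradiol and activates polycyclic hydrocarbons. It had 253 and 147 counts in control libraries against 1418 and 1185 in knockdown libraries. On the CPM scale the control values were 9.04 and 8.73 and the knockdown values 69.9 and 49.9. Both knockdown libraries lay above both controls, replicate 1 the higher of them. The means were 8.88 ± 0.220 CPM (SD, n = 2) and 59.9 ± 14.2 CPM (n = 2), a log2 fold change of 2.75 ± 0.23 (SE). It had rank 93 by log2 fold change among the 15170 genes tested. In bulk RNA, fewer or more cells that express a gene and a change per cell cannot be told apart.

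**Figure D1:**
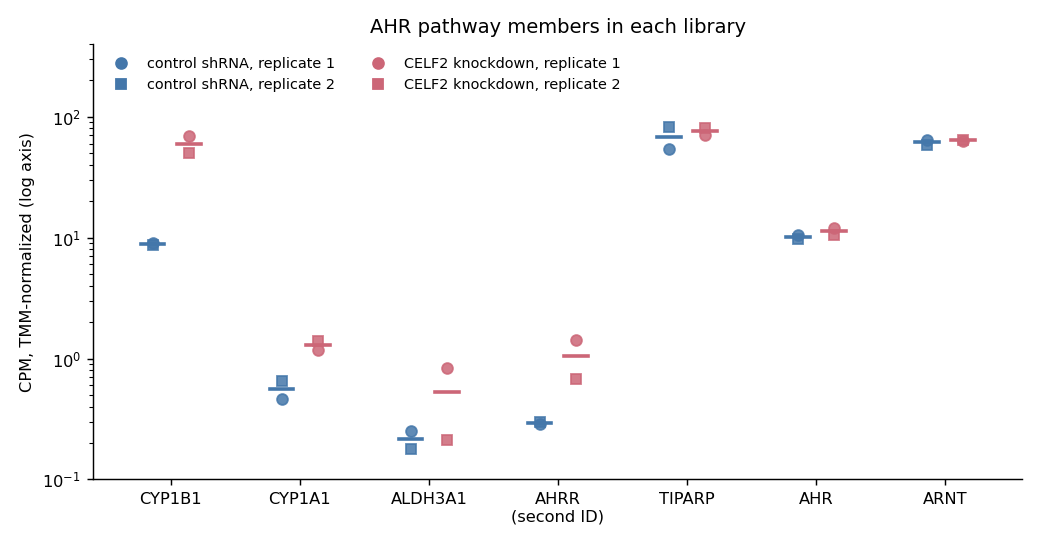
CPM of each gene in each library on a log axis, with control libraries in blue, knockdown libraries in red and a bar at each group mean; of the 2 AHRR rows only the second identifier is drawn. CYP1B1 sat at 8.73 to 9.04 CPM in the controls and at 49.9 to 69.9 CPM in the knockdown, while AHR, ARNT and TIPARP overlapped between groups.

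Part of the CYP1B1 locus is shared with genes read from the other strand, and the sources used here give neither the strand setting nor the handling of shared reads. Of its 6014 exonic bases in GENCODE v29, 678 (11.3%) overlap exons of the antisense RNA CYP1B1-AS1, 96 overlap RMDN2, and 69 overlap RMDN2-AS1 on the same strand. CYP1B1-AS1 had 9 and 5 counts in control libraries against 10 and 7 in knockdown libraries. RMDN2 had 2.46 and 1.19 CPM in the controls and 2.86 and 1.47 CPM in the knockdown, and RMDN2-AS1 had at most 1 count. Neither of the first 2 neighbors was separated between the groups, and both stood far below CYP1B1 in the knockdown libraries.

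**Figure D2:**
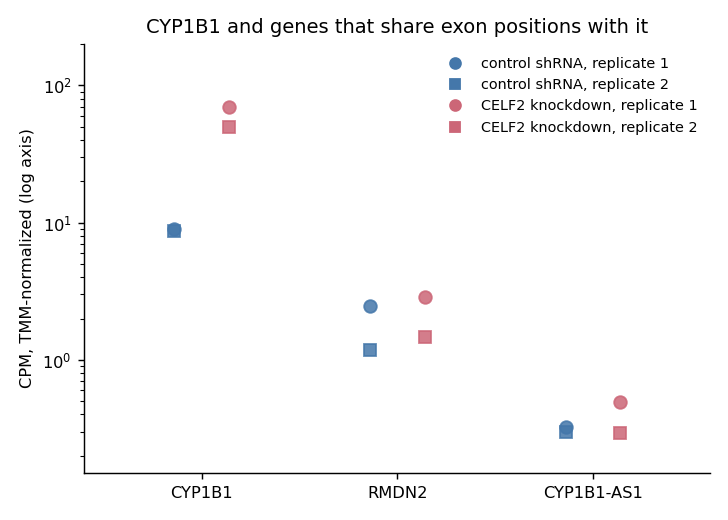
CPM on a log axis of CYP1B1, RMDN2 and CYP1B1-AS1 in the 4 libraries, control in blue and knockdown in red. RMDN2 ran from 1.19 to 2.86 CPM and overlapped between the groups, as did CYP1B1-AS1.

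CYP1A1 (ENSG00000140465, chromosome 15, 74719542 to 74725610, minus strand) is the classical inducible target and the usual reporter of AHR activity. It was scarce: 13 and 11 counts in control libraries against 24 and 33 in knockdown libraries, or 0.464 and 0.653 CPM against 1.18 and 1.39 CPM. The knockdown libraries were both above the controls. From the summed counts, 24 against 57, the knockdown was 2.42 times the control, with an exact 95% interval of 1.48 to 4.07 that covers counting error only. The 2 control values had overlapping counting intervals, 0.247 to 0.794 CPM and 0.326 to 1.17 CPM, and the lower knockdown value had one of 0.758 to 1.76 CPM. The liver-type relative CYP1A2 had 0 counts in every library.

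ALDH3A1 (ENSG00000108602, chromosome 17, 19737984 to 19748943, minus strand), an aldehyde dehydrogenase of surface epithelia, was near the floor. It had 7 and 3 counts in control libraries against 17 and 5 in knockdown libraries, or 0.250 and 0.178 CPM against 0.838 and 0.210 CPM. The groups overlapped, and only knockdown replicate 1 stood out. The ratio of the summed counts was 2.24 (exact 95% interval 1.02 to 5.30, counting error only). Without knockdown replicate 1 the log2 ratio was -0.08, and with all libraries it was 1.16.

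AHRR, the repressor, was listed in 2 rows. Identifier ENSG00000063438 (chromosome 5, 304176 to 438291, plus strand) had 0 and 1 counts in control libraries against 2 and 1 in knockdown libraries. Identifier ENSG00000286169, which GENCODE v29 lacks, had 8 and 5 counts in control libraries against 29 and 16 in knockdown libraries. On the CPM scale the second row stood at 0.286 and 0.297 in control libraries and at 1.43 and 0.673 after knockdown, and its knockdown libraries were both above the controls. Its summed counts gave a knockdown to control ratio of 3.52 (exact 95% interval 1.87 to 7.12, counting error only), and its log2 fold change was 1.83 ± 0.62 (SE). Without knockdown replicate 1 that log2 fold change was 1.21. The sources used here do not give how reads were divided between the 2 rows. With both rows added, the counts were 8 and 6 in control libraries against 31 and 17 in knockdown libraries.

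TIPARP (ENSG00000163659, chromosome 3, 156673235 to 156706770, plus strand), the ADP-ribosyltransferase that marks AHR for degradation, was abundant and did not follow CYP1B1. It had 53.9 and 82.2 CPM in the controls and 70.8 and 81.2 CPM in the knockdown. The highest value of all was that of control replicate 2, and the groups overlapped. The log2 fold change was 0.16 ± 0.23 (SE), with -0.12 when control replicate 1 was left out and 0.51 when control replicate 2 was left out, so its direction rests on the choice of control library.

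The receptor and its partner were level across the libraries. AHR (ENSG00000106546, chromosome 7, 16916359 to 17346152, plus strand) had 10.6 and 9.73 CPM in the controls and 11.98 and 10.5 CPM in the knockdown. These overlapped, with a log2 fold change of 0.14 ± 0.25 (SE). ARNT (ENSG00000143437, chromosome 1, 150809705 to 150876768, minus strand), which also pairs with hypoxia-inducible factors, had 64.6 and 58.9 CPM in the controls and 63.3 and 64.6 CPM after knockdown, a log2 fold change of 0.05 ± 0.16. A lack of separation at n = 2 does not show that the levels were equal.

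Of the 8 rows, 6 passed the filter on low counts, all but ALDH3A1 and the first AHRR row. The second AHRR row passed only through its knockdown counts, so its separation is partly set by the filter. The fit called 1 of the 6, CYP1B1, where it called 0.877% of all tested genes. Both knockdown libraries lay above both controls in 3 of the 6, against 27.1% of all tested genes, and below them in 0, against 27.9%. Groups did not overlap in either direction in 54.9% of all tested genes. The genes were chosen from this same contrast, and nothing is read from these shares.

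Per kilobase of exon, the controls ranked TIPARP first (10.7 and 16.3 CPM per kb), then ARNT (9.91 and 9.04), CYP1B1 (1.50 and 1.45), AHR (1.31 and 1.20), CYP1A1 (0.135 and 0.190) and ALDH3A1 (0.0638 and 0.0455). In the knockdown CYP1B1, at 11.6 and 8.29 CPM per kb, moved into the range of ARNT, at 9.71 and 9.91, and the 2 genes overlapped. TIPARP stood at 14.03 and 16.1 CPM per kb there, above both. Per kilobase, ARNT exceeded AHR 7.55-fold and 7.50-fold with the control shRNA and 6.55-fold and 7.61-fold after knockdown. The ratio of CYP1B1 to CYP1A1 was 11.1 and 7.63 with the control shRNA and 33.7 and 20.5 after knockdown. These lengths join all annotated exons of a gene, which lowers the per-kilobase level of genes with rarely used exons. Of the 8081 exonic bases of AHR, 2373 (29.4%) overlap exons of AC019117.2 on the same strand, which had 0 counts in every library. The per-kilobase level of AHR, its ratio to ARNT and its rank below CYP1B1 in the controls are therefore uncertain.

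Within the cytochrome P450 superfamily, CYP1B1 went from rank 9 by mean level per kilobase in the controls to rank 1 in the knockdown. It made up 4.74% of the summed per-kilobase level of the 56 P450 rows in the controls and 21.6% in the knockdown. The vitamin D 1-alpha-hydroxylase CYP27B1, the highest in the controls at 4.40 and 10.8 CPM per kb, had 5.40 and 9.16 in the knockdown and overlapped there with CYP1B1. Besides CYP1B1 and CYP1A1, 54 P450 rows were found and 17 could be tested; 0 of the 17 were called by edgeR (2 at an unadjusted p under 0.05) and 0 by DESeq2, with a median log2 fold change of 0.51 against -0.0036 over all tested genes. The smallest p-values among them were those of CYP4X1 (log2 fold change 1.81), CYP2S1 (0.93), an epithelial P450 that AHR also induces, CYP2U1 (0.57) and CYP51A1 (0.75), the sterol demethylase. CYP4X1 rested on 5 and 7 counts in the controls. It passed the filter on low counts only through its knockdown counts, so its separation is partly set by the filter.

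**Figure D3:**
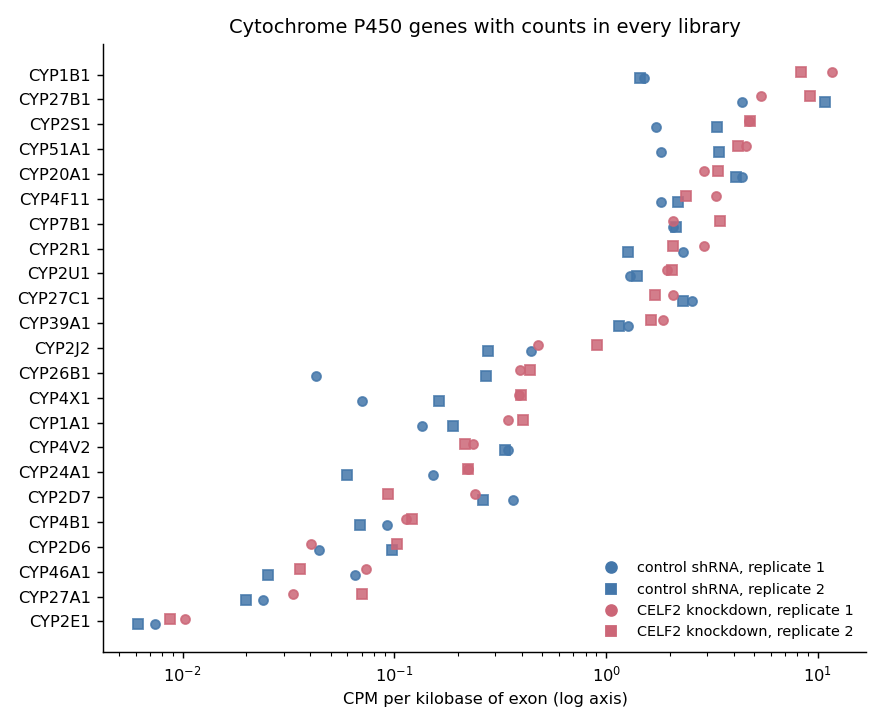
CPM per kilobase of exon (log axis) of the 23 cytochrome P450 genes with counts in every library, ordered by the mean of the knockdown libraries, control in blue and knockdown in red. CYP1B1 is the top row, at 8.29 and 11.6 in the knockdown against 1.45 and 1.50 in the controls; CYP27B1, next below it, overlaps between the groups.

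Other genes that AHR is known to induce were taken from a list of names that excluded the 7 genes above. Of 20 tested, 1 rose and 0 fell, against 0.606% and 0.27% of all tested genes; the median log2 fold change was 0.24. The gene that rose was NEDD9, a scaffold protein of focal adhesions. It had 3.32 and 5.22 CPM in the controls and 16.1 and 17.7 CPM after knockdown, a log2 fold change of 2.00 ± 0.31 (SE; adjusted p = 0.0483 by edgeR's quasi-likelihood test). This call was lost without control replicate 1 (edgeR adjusted p = 0.160), without knockdown replicate 2 (edgeR adjusted p = 0.107) and with limma-voom (adjusted p = 0.0558). NEDD9 shares exon positions with AL139807.1 and its count is uncertain.

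LRG1, a secreted glycoprotein, had 3 and 6 counts in control libraries against 47 and 40 in knockdown libraries and was not called (log2 fold change 3.20 ± 0.66, SE; edgeR adjusted p = 0.0617). LRG1 passed the filter on low counts only through its knockdown counts, so its separation is partly set by the filter. HES1, a repressor also induced by Notch, went from 10.97 and 11.9 CPM to 26.0 and 21.4 CPM without passing (log2 fold change 1.05). Several known targets were singled out here after their values were seen. The quinone reductase NQO1 overlapped between groups, with 92.3 and 152 CPM in the controls and 115 and 135 CPM in the knockdown. PTGS2, a prostaglandin synthase, had 1.61 and 12.05 CPM in the controls and 1.68 and 6.86 CPM in the knockdown, and the hormone STC2 had 19.7 and 127 CPM against 45.0 and 98.1 CPM. For these 3 genes, as for TIPARP, control replicate 2 held the highest value of the 4 libraries.

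**Figure D4:**
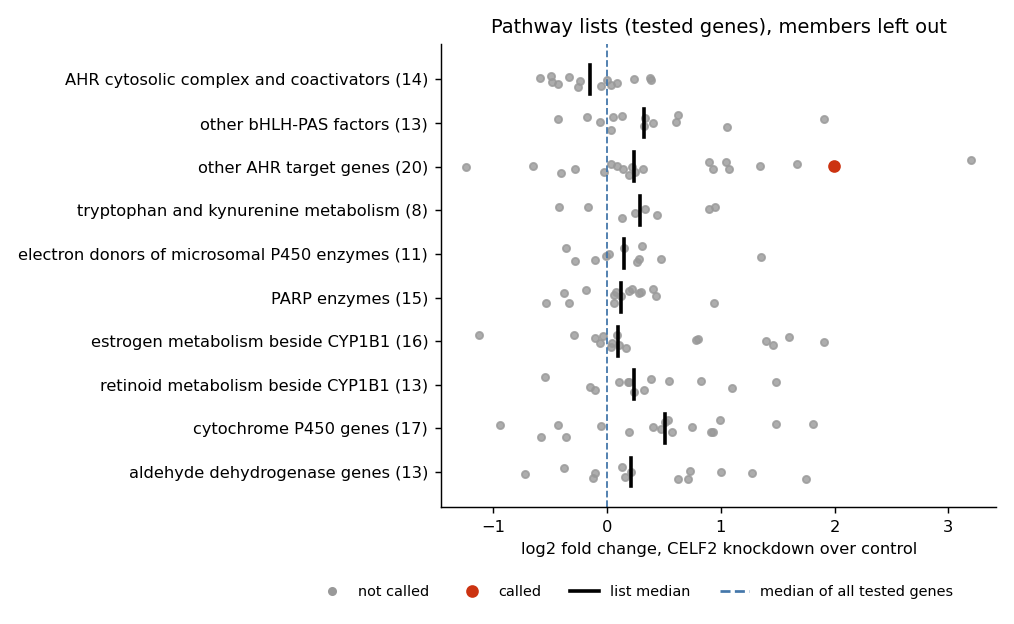
Log2 fold changes, knockdown over control, of the tested genes in 10 lists around the pathway (number tested in brackets), with black bars at the list medians and a dashed line at the median of all tested genes. The 1 gene called, in red, is NEDD9, and the medians run from -0.15 to 0.51.

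Among proteins that hold, fold or assist AHR, 0 of 14 were called by edgeR (3 at an unadjusted p under 0.05) and 0 by DESeq2, and the median log2 fold change was -0.15. The cochaperone PTGES3 had a log2 fold change of -0.59, HSP90AB1 one of -0.43 and the chromatin remodeler SMARCA4 one of -0.50, each with both knockdown libraries below the controls. Both knockdown libraries lay below both controls in 4 of the 14, beside 27.9% of all tested genes. They lay above both controls in 2, beside 27.1%. The coactivator NCOA3 had one of 0.37. Among 13 tested relatives with the same bHLH-PAS fold, edgeR called 0 (3 at an unadjusted p under 0.05), DESeq2 called 1, and the median was 0.32. NPAS1, a brain-type family member, had 1.36 and 1.72 CPM in the controls and 6.95 and 4.59 CPM after knockdown (log2 fold change 1.91). HIF1A, the hypoxia factor that competes for ARNT, had a log2 fold change of 0.61, the clock gene PER3 one of 1.06 and NPAS2 one of -0.43.

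Enzymes that make or clear AHR ligands from tryptophan were mostly weakly counted. They were listed with the amino acid transporters SLC7A5 and SLC3A2, which were abundant. Of these 17 genes 8 could be tested, both transporters among them. For the list edgeR called 0 (2 at an unadjusted p under 0.05) and DESeq2 1. IDO1 and TDO2, which open the kynurenine route, had 0 counts in every library. QPRT, which turns quinolinate toward NAD, had 76.7 and 92.3 CPM in the controls and 187 and 140 CPM after knockdown without passing (log2 fold change 0.95). KYAT3 had a log2 fold change of -0.43 and KYNU, kynureninase, one of 0.44. KMO, the kynurenine hydroxylase, rested on 5 to 24 counts a library and had a log2 fold change of 0.90, which turned to -0.10 without knockdown replicate 1.

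For the partners of P450 enzymes and heme metabolism, edgeR called 0 of 11 (1 at an unadjusted p under 0.05) and DESeq2 1, with a median of 0.15. The heme oxygenase HMOX1 had a log2 fold change of 1.35, PGRMC1 one of -0.36, CYB5R1 one of 0.48 and CYB5B one of -0.28. POR, the reductase that feeds electrons to CYP1B1 and was singled out after its values were seen, overlapped between groups at 133 and 169 CPM in the controls and 203 and 158 CPM in the knockdown. Among 15 PARP enzymes, the family of TIPARP, edgeR called 0 (5 at an unadjusted p under 0.05), DESeq2 called 1, and the median was 0.12. PARP9 had 28.0 and 27.0 CPM in the controls and 54.4 and 51.6 CPM after knockdown without passing (log2 fold change 0.94, edgeR adjusted p = 0.0534). PARP12 and PARP14 had 0.43 and 0.41, and PARP1, the main DNA damage sensor of the family, had -0.54.

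CYP1B1 oxidizes estrogens and retinoids, and the genes around those steps were taken as 2 further lists. In estrogen metabolism edgeR called 0 of 16 tested genes (5 at an unadjusted p under 0.05), DESeq2 called 1, and the median was 0.09. HSD17B2, which inactivates estradiol, had a log2 fold change of 1.40, the estrogen receptor ESR1 one of 1.46, the sulfotransferase SULT1A1 one of 1.91 and GSTM3 one of 0.80. SULT1A1 had 1.71 and 0.594 CPM in the controls and 6.85 and 2.19 CPM in the knockdown. In retinoid metabolism edgeR called 0 of 13 (3 at an unadjusted p under 0.05), DESeq2 called 1, and the median was 0.24. The carrier CRABP2 had a log2 fold change of 1.10, the receptor RARG one of 0.39 and the retinoic acid hydroxylase CYP26B1 one of 1.48 ± 0.75 (SE). CYP26B1 rested on 6 and 23 counts in control libraries against 40 and 52 in knockdown libraries. Among 13 tested aldehyde dehydrogenases other than ALDH3A1, edgeR called 0 (6 at an unadjusted p under 0.05), DESeq2 called 4, and the median was 0.21. ALDH3B1 and ALDH3B2, of the same family as ALDH3A1, had 1.75 and 1.27, ALDH5A1 had 0.73 and ALDH16A1 had -0.72. Over the 10 lists together, 136 distinct genes were tested and edgeR called 1, beside 0.877% of all tested genes. At an unadjusted p under 0.05 in that fit there were 37 of the 136, beside 3350 of all 15170. DESeq2 called 14 of the 129 list genes it tested, beside 9.42% of all genes it tested. With limma-voom 0 were called.

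The genes most like CYP1B1 over the 4 libraries were sought by the Euclidean distance of mean-centered log2 CPM among the 10919 tested genes averaging 5 CPM or more. The 6 nearest were TP53INP1 (distance 0.33), IGFL2-AS1 (0.41), KRT86 (0.51), MMP28 (0.52), UCA1 (0.52) and INHBB (0.56). Each had both knockdown libraries above both controls, with log2 fold changes of 2.22 to 3.38. IGFL2-AS1 had 10.7 and 9.97 CPM in the controls and 77.6 and 40.9 CPM in the knockdown. A likeness over 4 libraries mostly reflects the difference between the groups.

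Marker lists of proliferation and of other cell types were read in the same libraries. All 10 proliferation markers had lower values in both knockdown libraries than in the controls, as did 27.9% of all tested genes. Of these markers edgeR called 5 lower (RRM2, TYMS, MCM5, MKI67 and CDC20), beside 0.27% of all tested genes, DESeq2 called 10 and limma-voom 0 (10 at an unadjusted p under 0.05). They had a summed level of 3765 and 2255 CPM in the controls and 883 and 1193 CPM in the knockdown. Fibroblasts are a known site of CYP1B1 expression. Of 14 fibroblast markers 6 were at 0 in every library (COL1A2, COL3A1, DCN, LUM, THY1 and POSTN), and the summed level was 60.0 and 83.8 CPM in the controls and 98.05 and 82.0 CPM in the knockdown. Among the 7 that could be tested, edgeR called 1 higher (2 at an unadjusted p under 0.05), beside 0.606% of all tested genes. For this list DESeq2 called 2 and limma-voom 0 (2 at an unadjusted p under 0.05). The gene called by edgeR was S100A4, which keratinocytes also express (log2 fold change 1.70, edgeR adjusted p = 0.0483). COL1A1, a collagen chain, had 13.1 and 16.1 CPM in the controls and 37.5 and 20.7 CPM after knockdown without passing (log2 fold change 1.00). PDGFRB had 5 and 4 counts against 11 and 11. It passed the filter on low counts only through its knockdown counts, so its separation is partly set by the filter. S100A4, COL1A1 and PDGFRB were the 3 of the 7 with both knockdown libraries above both controls, beside 27.1% of all tested genes. The rest overlapped between groups, with log2 fold changes of -0.93 for VIM, -0.24 for FBN1, 0.02 for FAP and 0.09 for TWIST1. The median of the 7 was 0.09. Endothelial markers summed to 4.71 and 3.38 CPM in the controls and 9.12 and 8.96 CPM in the knockdown, with CDH5 at 0 to 3 counts. VWF had 0 counts in both controls and 10 and 14 in the knockdown, and it passed the filter on low counts only through its knockdown counts. Immune markers summed to 5.82 and 6.29 CPM against 22.6 and 10.3 CPM, with PTPRC, CD3E and CD4 at 0 in every library. Most of that sum was CD14, at 1.21 and 0.356 CPM against 10.6 and 2.02 CPM, and HLA-DRA, at 3.79 and 4.93 CPM against 10.6 and 7.78 CPM, neither of which passed. Melanocyte markers summed to 8.82 and 6.11 CPM against 9.02 and 9.04 CPM, with MLANA, TYR, TYRP1 and SOX10 at 0. Of the endothelial, immune and melanocyte markers edgeR called 0, with 2, 2 and 0 at an unadjusted p under 0.05, and DESeq2 called 0, 2 and 0. Their part in the CYP1B1 difference was not tested.

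The size of the CYP1B1 difference varied little with the model. Over 10 other fits its log2 fold change ran from 2.50, without knockdown replicate 1, to 2.97, without knockdown replicate 2.

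**Figure D5:**
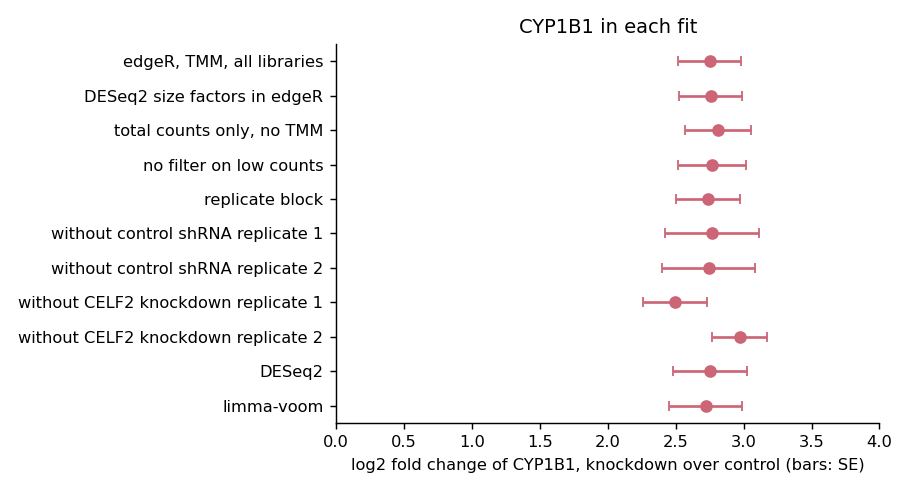
Log2 fold change of CYP1B1, knockdown over control, in the main fit and in 10 other fits, with bars for the SE of each fit. The estimates run from 2.50 to 2.97.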

How the data were processed

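Raw counts of reads were deposited as a single table, its rows Ensembl genes and its columns the 4 libraries. HISAT2, edgeR and GRCh38 are named in the submitters' processing notes, without versions. The sources used here do not give the counting program, annotation release or strand setting. Counts were fitted with edgeR 4.0.16 in R 4.3.3: quasi-likelihood test, TMM factors, filterByExpr (minimum count 10), groups from the sample titles, Benjamini-Hochberg adjustment at 0.05 over 15170 genes. CPM values are scaled by TMM factors. Alternatives used DESeq2 1.42.0, limma 3.58.1 (voom), other scalings, no filter, a replicate term and 1 library left out at a time. Replicates were distinct libraries (chi-square per degree of freedom 59.8 and 52.6). The fit was tested on simulated data. GENCODE v29 (GRCh38) gave positions and exon lengths for 58542 of the 60617 identifiers; PER1 and other older symbols were matched by gene ID. The exact 95% intervals, and the floors of 3 counts, take in only counting error.

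The members and lists were chosen with earlier results of these data known. Named list genes are those called plus up to 4 per list with the smallest p; some are not reported here. Distances used log2(CPM + 0.5). Counts are uncertain where exons overlap another annotated gene. Beside those named in the text, this holds for AHR, AHRR, TIPARP, ALDH3A1, LRG1, NQO1, SMARCA4, NCOA3, HIF1A, NPAS2, PER3, KYNU, KMO, KYAT3, QPRT, POR, CYB5B, PARP9, SULT1A1, HSD17B2, ESR1, GSTM3, ALDH5A1, ALDH16A1, TYMS, RRM2, CYP51A1, CYP27B1, CYP2U1, KRT86 and UCA1.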

Additional observations from a re-analysis of the deposited data

How the results depend on the processing

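The number of genes called over the whole table depended strongly on the fit, 133 in the main one. It was 207 with DESeq2 size factors, 416 with total counts only, 2139 with no filter on low counts, 1341 with DESeq2 (757 higher and 584 lower) and 0 with limma-voom, where 3402 genes had an unadjusted p under 0.05. Leaving out 1 library gave 0 to 616 calls: edgeR called 0 without control replicate 1 (1724 at an unadjusted p under 0.05), 616 when control replicate 2 was left out, 365 when knockdown replicate 1 was, and 7 when knockdown replicate 2 was. Among the 136 genes of the pathway lists the main fit called 1, and these alternatives called 2, 7, 26, 14 and 0 (limma-voom; 40 at an unadjusted p under 0.05) and 0 to 6 with 1 library left out.

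With the replicate number as a block, 1579 genes were called over the table and 18 in the pathway lists. The labels do not say what the numbers share, and deviations of same-numbered libraries correlated at 0.200.

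CYP1B1 was chosen for its higher knockdown counts in these same libraries, so its direction and calls in the refits are a description and no independent test. It kept its direction in all 10 alternatives and moved beyond its replicate spread in 1, to 2.50 without knockdown replicate 1 (2.97 without knockdown replicate 2). It was among the genes called in 8, the exceptions being limma-voom and the fit without control replicate 1, which called 0 genes. Of 46 named list genes, the direction turned only for KMO, to -0.10 without knockdown replicate 1 (1.51 without knockdown replicate 2). These genes were mostly picked for a small p in this same contrast, so a kept direction is largely set by that choice. For NQO1, PTGS2 and STC2, which were not picked by p, the control libraries lay on either side of the knockdown libraries. ALDH3A1 was not run with DESeq2 size factors, limma-voom or the block, since the filter leaves it out. Counts limit CYP1A1, ALDH3A1 and AHRR.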
